A study of Mus musculus with 16 samples.

Results

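The cytosolic ribosomal protein genes were followed across mouse mammary tumours treated with an antibody against PD-L1, the Smoothened inhibitor sonidegib, or both. They were taken as all rows whose gene symbol begins with Rpl or Rps and goes on with a digit or the letter p, leaving out symbols that contain -ps (pseudogenes) and those that begin with Rps6k (the S6 kinases). This gave 91 genes of the 55146 rows. Of these, 75 encode structural proteins of the ribosome, 45 in the large and 30 in the small subunit. A further 9 are paralogs or other products, such as Rps19bp1, and 7 are annotated as processed pseudogenes although their symbols lack -ps.

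The tumours carried the MMTV-PyMT transgene, in which the mouse mammary tumour virus promoter drives the polyoma middle T antigen in mammary epithelium. Tumours of transgenic donors aged 12 weeks were placed in the fourth mammary fat pad of FVB mice, so the host immune cells are those of FVB recipients. The combination group was given 2 weekly doses of 5 mg/kg anti-PD-L1 together with 20 mg/kg sonidegib daily, the sonidegib and anti-PD-L1 groups received 1 of the agents at that dose, and the vehicle group neither, all for 28 days. Each of the 4 groups has 4 whole-tumour libraries, depleted of ribosomal RNA. No label says whether tumours of a group came from separate donors, so p-values reflect only how much these 16 tumours vary.

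A ribosome is built from a small subunit, which reads the messenger RNA, and a large subunit, which joins amino acids and passes the new chain out through a tunnel. Most of its proteins are made from messages that carry a pyrimidine tract at the very start of the RNA, the 5′ TOP motif, through which mTORC1 signalling controls their translation as a group. Because the proteins are needed in matched amounts, these genes are known for being expressed together and at very high levels, and growing tumour cells use them heavily.

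Levels are given as FPKM, a fragment count scaled by transcript length and library size, which allows comparison between genes. Rpl38 had the highest mean over the 16 libraries at 2043 FPKM, followed by Rplp1 at 2006, Rpl41 at 1963, Rps27 at 1505 and Rpl13a at 1459 FPKM. Rpl41 encodes the smallest protein of the ribosome, and Rplp1 is a protein of the stalk that recruits elongation factors. At the low end among genes that could be tested stood Rpl7l1 at 31.7, Rpl37rt at 31.1, Rps19bp1 at 12.3, Rps27rt at 7.76 and Rpl32l at 1.24 FPKM. In all, 86 of the 91 genes reached 1 FPKM in at least 4 libraries and were tested, among them all 75 structural genes. The 5 others were Rpl10l, listed at 0 in all 16 libraries, Rpl39l, Rpl3l, Rps4l and Rps12l1. Rpl10l and Rpl39l are known from testis and Rpl3l from muscle, and the 4 genes after Rpl10l had group means between 0.108 and 0.863 FPKM.

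The messages of these genes begin at sites that often hold the pyrimidine tract. RefSeq promoters on GRCm38.p6 were matched for 66 of the 91 genes, with 78 annotated starts. A tract was counted where a C lies within 5 bases either side of the annotated start and at least 4 bases that are each C or T follow it on the same strand. It was found at 42.3% of the 78 starts, against 18.3% of the 32851 starts of all genes in the table. The letters CCGGAAG, the core of ETS-family motifs, were searched on both strands over the 300 bases around each start, and stood at 33.3% of the starts of these genes and 8.86% of all starts. Read on the other strand, CTTCCGG begins with letters that can also count as a tract. These matches describe the letters and are not binding sites. The following 30-base windows, 15 bases before the start and 15 from it on, are those of the 4 tract-bearing genes with the largest and the 4 with the smallest difference between combination and vehicle tumours, and capitals mark the tract.
Rpl35a: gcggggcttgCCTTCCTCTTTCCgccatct
Rps15a: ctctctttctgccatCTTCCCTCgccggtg
Rps24: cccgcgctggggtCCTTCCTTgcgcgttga
Rpl35: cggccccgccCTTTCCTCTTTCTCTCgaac
Rpl38: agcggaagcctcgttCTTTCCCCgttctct
Rplp2: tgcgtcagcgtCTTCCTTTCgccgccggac
Rps9: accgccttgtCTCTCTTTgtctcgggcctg
Rpl7a: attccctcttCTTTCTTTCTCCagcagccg
These lie at chr16:33056467-33056496 on the plus strand for Rpl35a, chr7:118116133-118116162 on the minus strand for Rps15a, chr14:24490663-24490692 on the plus strand for Rps24 and chr2:39005117-39005146 on the minus strand for Rpl35. Those of Rpl38 (chr11:114668565-114668594), Rplp2 (chr7:141447636-141447665), Rps9 (chr7:3704026-3704055) and Rpl7a (chr2:26910792-26910821) are all on the plus strand.

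In the tumours these genes stood higher in the treated groups than in vehicle on average, and the spread within the vehicle group was wide. The summed FPKM of the 91 genes was 43704, 64978, 30838 and 55156 in combination tumours 1 to 4 and 44446, 50344, 40559 and 50483 in sonidegib tumours. It was 38587, 30640, 39185 and 43251 in anti-PD-L1 tumours, against 44450, 17575, 13150 and 35123 in vehicle tumours. Vehicle tumours 2 and 3 were the lowest of all 16, while vehicle tumours 1 and 4 lay among the treated ones, and every pair of groups overlapped. The group means were 48669 ± 14727 in combination, 46458 ± 4835 in sonidegib, 37916 ± 5275 in anti-PD-L1 and 27574 ± 14718 in vehicle tumours (SD, n = 4 each). As a share of the summed FPKM of nuclear coding genes, they made up 7.10% in vehicle tumour 2 and 2.95% in vehicle tumour 3, against 8.83% to 19.7% in the other 14 libraries. In bulk tumour RNA, fewer cells that express a gene and less RNA of it per cell cannot be told apart.

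**Figure D1:**
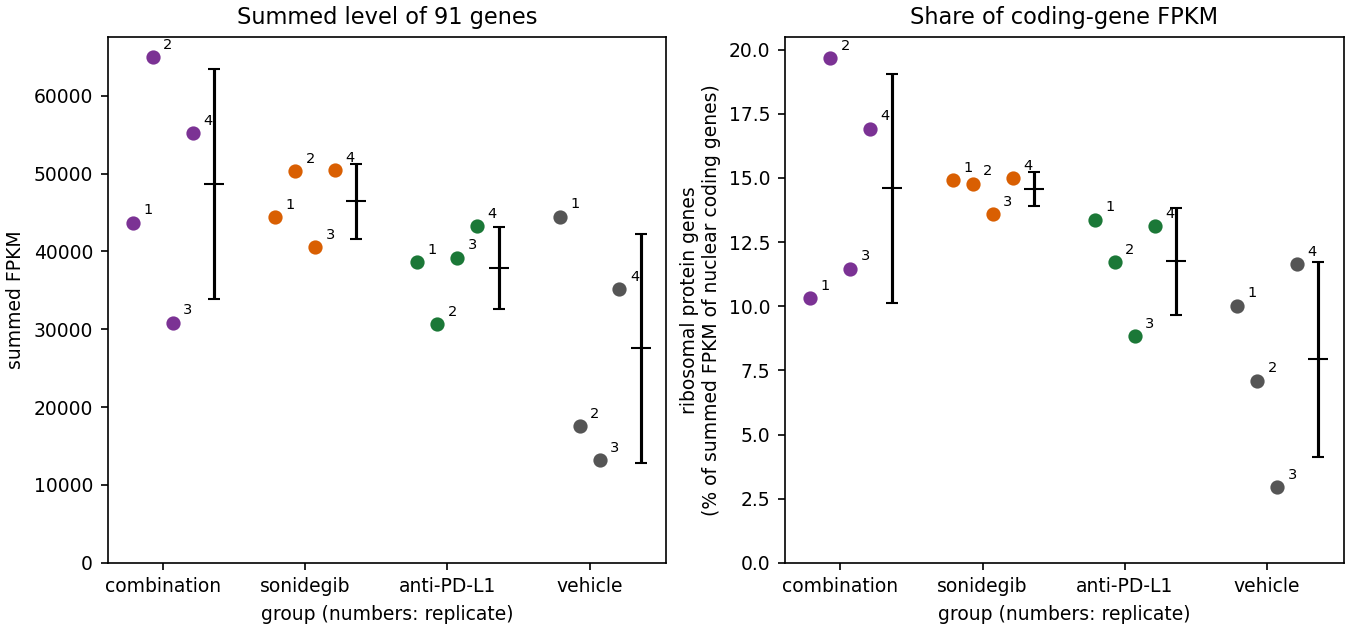
Left, summed FPKM of the 91 ribosomal protein genes in each tumour. Right, their share, in percent, of the summed FPKM of nuclear coding genes. Points are tumours, numbered by replicate, and bars beside them give the group mean and SD (n = 4 each). Vehicle tumours 2 and 3 lie lowest in both panels, and combination tumours 2 and 4 highest.

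The 2 lowest libraries were nearly the same gene by gene, whereas the highest library varied more. Vehicle tumours 2 and 3 were the 2 lowest libraries for 83 of the 86 tested genes (96.5%), as they were for 20.6% of all 15105 genes tested. Vehicle tumour 3 was the lowest for 82 of them (95.3%), against 65% of all genes. At the other end, combination tumour 2 or 4 was the highest for 58 of the 86 (67.4%), against 21.4% of all genes. Vehicle tumour 1 or sonidegib tumour 2 was the highest for 17 (19.8%), a share that was not taken over all genes.

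Other measures of the libraries went in part with the low levels in vehicle tumours 2 and 3. Vehicle tumour 3 had 11361 genes at 1 FPKM or more, against 13107 to 14784 in the 15 others. The depth estimated from the FPKM step of a single fragment was 34.1 M fragments in vehicle tumours 2 and 3 and 35.2 to 57.4 M in the other 14, with 35.2 M in sonidegib tumour 4, whose ribosomal protein genes were high. Relative to the median of all tested genes, the median ribosomal protein gene lay at -1.02 and -0.94 log2 units from its mean over the 16 libraries in vehicle tumours 2 and 3, and at -0.39 to 0.80 in the other 14. After scaling each library by the median of its ratios, the summed FPKM was 19461 in vehicle tumour 2 and 28216 in vehicle tumour 3, against 27297 to 61473 in the other 14, so that vehicle tumour 3 then lay inside their range. The part of depth and library composition in these levels was not tested.

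**Figure D2:**
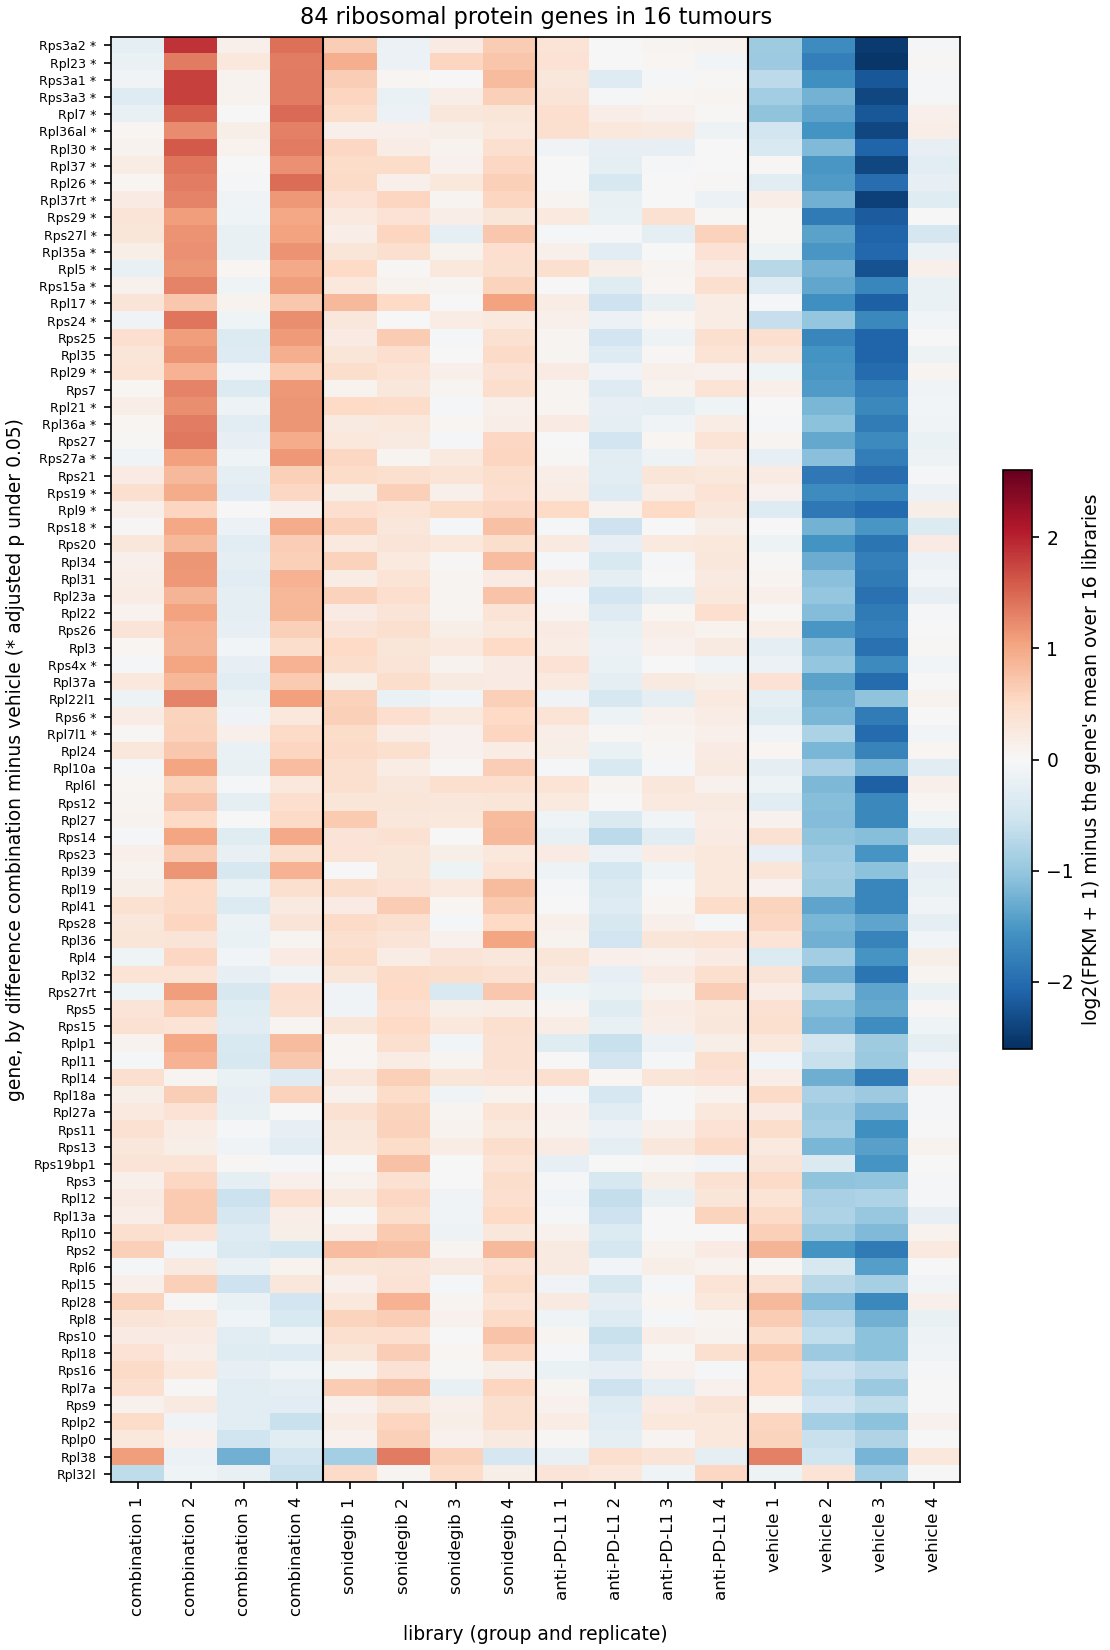
Each row is a gene, 84 of the 86 tested, and each column a tumour; colour gives log2(FPKM + 1) minus the gene's mean over the 16 libraries. Genes are ordered by the difference between combination and vehicle tumours, and asterisks mark adjusted p under 0.05. Vehicle tumours 2 and 3 are blue in nearly every row, and combination tumours 2 and 4 are darkest red in the upper rows.

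Genes were tested with limma on log2(FPKM + 1) in 1 fit over the 16 libraries, with Benjamini-Hochberg adjustment over the 15105 genes. The 3 comparisons with vehicle share the vehicle libraries. Between combination and vehicle tumours, 28 of the 86 genes (32.6%) passed at an adjusted p under 0.05, all of them higher in combination tumours. Of all genes tested, 11.3% passed, 10.3% as higher. At an unadjusted p under 0.05 there were 56 of the 86 (65.1%), all higher, against 33.6% of all genes and 28.6% as higher. The median difference was 1.05 log2 units over the 86 genes and 0.26 over all genes, and 84 of the 86 differences were above 0, as were 68.3% of all differences. Scaling between libraries lowered both medians. That over all genes was -0.03 after quantile normalization and 0.01 after median-of-ratios scaling, with medians of 0.74 and 0.70 over the 86 genes. All genes called split into 1559 higher and 144 lower without scaling, 1326 and 1308 after quantile normalization and 1539 and 1233 after median-of-ratios scaling. In 8 genes (9.3%) all 4 combination tumours exceeded all 4 vehicle tumours, against 3.12% of all genes. Among these were Rpl30, Rps15a, Rpl26, Rpl17, Rps27a, Rpl7l1 and Rpl10a, of which Rpl10a did not pass the adjusted threshold.

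The calls rested on single tumours, as did those over all genes. By limma 0 genes passed when vehicle tumour 1, 2 or 3 or combination tumour 2 or 4 was left out, and over all 15105 genes 3 to 10 passed in these settings. Leaving out vehicle tumour 4 gave 51 calls (59.3%), against 32.8% of all genes, and leaving out combination tumour 1 gave 41 (47.7%), against 28% of all genes. Leaving out any of the 9 other libraries gave 19 or 20 (22.1% or 23.3%), against 3.38% to 10.9% of all genes. With vehicle tumours 2 and 3 left out together, an alternative added because of their low levels here and thus no independent check, 0 genes passed by limma (13 at an unadjusted p under 0.05), and the median difference was 0.35 log2 units.

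**Figure D3:**
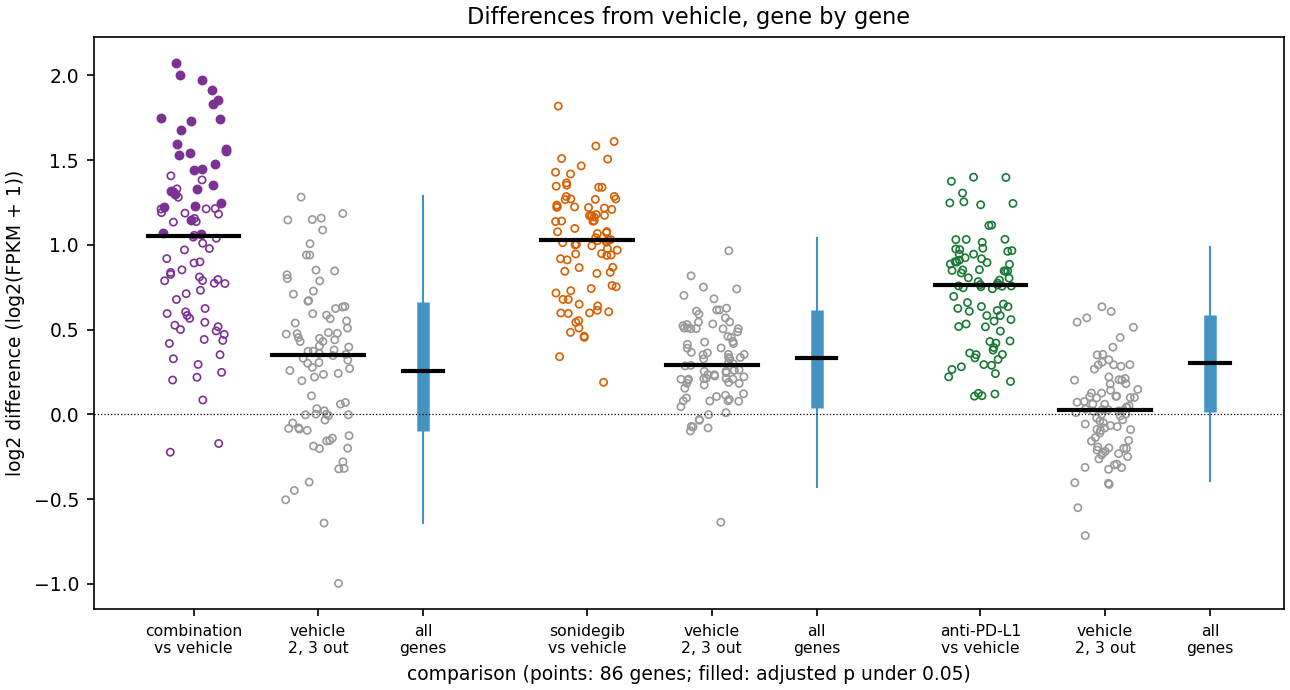
Difference from vehicle in log2(FPKM + 1) for each of the 86 genes, with all 4 vehicle tumours (coloured, filled where the adjusted p is under 0.05) and with vehicle tumours 2 and 3 left out (grey). Blue boxes give the quartiles and blue lines the 5th to 95th percentiles over all 15105 genes, and black bars are medians. The medians of 1.05, 1.03 and 0.76 with all vehicle tumours stand at 0.35, 0.29 and 0.02 without those 2.

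Within the large subunit, 12 of the 45 structural genes rose in combination tumours, with a median difference of 0.90. Rpl23, a protein at the face between the subunits that also binds the p53 regulator Mdm2, had 311, 888, 426 and 886 FPKM in combination tumours, against 182, 101, 59.4 and 358 FPKM in vehicle tumours. Vehicle tumour 4 lay above combination tumour 1, so the groups overlapped by that pair. The difference was 2.00 ± 0.47 (SE) log2 units, with a limma adjusted p of 0.0342. Rpl30, whose yeast counterpart binds its own precursor RNA, had 185, 525, 186 and 443 FPKM in combination and 132, 78.2, 40.0 and 150 FPKM in vehicle tumours. Here all combination tumours were above all vehicle tumours, and the difference was 1.74 ± 0.40 with a limma adjusted p of 0.0342. Rpl7 (1.83 ± 0.47, limma adjusted p 0.0357) and Rpl37 (1.73 ± 0.45, limma adjusted p 0.0357), both large-subunit proteins, followed. Rpl3, which lies by the peptidyl transferase centre, differed by 1.16 ± 0.38 and stood just outside the threshold (limma adjusted p 0.0541), and Rpl10, which joins the subunit late in its assembly, by 0.50 ± 0.35 (limma adjusted p 0.327).

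The 8 genes of the peptide exit tunnel and its rim had a median difference of 1.20, and 2 of them, Rpl26 and Rpl17, passed. Rpl26, which sits at the tunnel's mouth and in human cells also binds p53 messenger RNA, had 888, 2163, 823 and 2349 FPKM in combination tumours, against 709, 310, 216 and 738 FPKM in vehicle tumours. The groups did not overlap, and combination tumours 2 and 4 stood far above the other 2. The difference was 1.68 ± 0.44, with a limma adjusted p of 0.0357. Rpl17 lay between 93.1 and 142 FPKM in combination and between 19.1 and 84.7 FPKM in vehicle tumours (1.45 ± 0.40, limma adjusted p 0.0375). Rpl39, a small protein that lines the tunnel, differed by 0.90 ± 0.39 and did not pass (limma adjusted p 0.116).

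The 5S particle, in which Rpl5 and Rpl11 bind 5S ribosomal RNA and can hold Mdm2, gave unequal values. Rpl5 had 62.5, 161, 74.8 and 144 FPKM in combination tumours, against 42.8, 29.4, 14.2 and 78.8 FPKM in vehicle tumours. It rose by 1.53 ± 0.40 log2 units (limma adjusted p 0.0357), although vehicle tumour 4 exceeded combination tumours 1 and 3. Rpl11 had 148, 287, 115 and 250 FPKM in combination and 146, 102, 77.4 and 145 FPKM in vehicle tumours, a difference of 0.71 ± 0.33 that did not pass (limma adjusted p 0.136). The difference between the 2 genes was not tested.

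The 3 stalk genes, whose proteins recruit the elongation factors, had the smallest median difference of any role, at 0.20, and 0 of 3 passed by limma, also at an unadjusted p under 0.05. Rplp0, the base of the stalk, had 855, 769, 495 and 577 FPKM in combination tumours, against 1058, 475, 414 and 713 FPKM in vehicle tumours. The groups overlapped fully, with a vehicle tumour at each end, and the difference was 0.09 ± 0.34 (limma adjusted p 0.885). Its sign turned under other scalings, to -0.12 after quantile normalization and -0.27 after median-of-ratios scaling. Rplp2 differed by 0.20 ± 0.37 (limma adjusted p 0.727), likewise turning to -0.15 under both scalings, and Rplp1 by 0.73 ± 0.38 (limma adjusted p 0.188).

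In the small subunit, 10 of the 30 structural genes rose, with a median difference of 1.11. Rps6, the substrate of the S6 kinases, had 145, 189, 118 and 152 FPKM in combination and 101, 54.6, 35.1 and 124 FPKM in vehicle tumours, overlapping by 1 pair (1.07 ± 0.33, limma adjusted p 0.046). Rps19, the gene most often mutated in Diamond-Blackfan anaemia in people, was just inside the threshold at 1.25 ± 0.40 (limma adjusted p 0.0499). Rps4x, an X-linked small-subunit gene, likewise rose (1.15 ± 0.36, limma adjusted p 0.0488). None of the 7 genes of the messenger RNA path and the decoding site passed by limma, 3 having an unadjusted p under 0.05, and their median was 0.77. Among them Rps2 had 162, 99.5, 80.3 and 75.4 FPKM in combination tumours, against 194, 34.9, 28.5 and 125 FPKM in vehicle tumours (0.49 ± 0.48, limma adjusted p 0.489).

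Rps27a, which is made as a fusion of ubiquitin with a ribosomal protein, had 548, 1233, 543 and 1272 FPKM in combination tumours, against 504, 277, 168 and 534 FPKM in vehicle tumours. The groups did not overlap, with combination tumour 3 standing just above vehicle tumour 4, and the difference was 1.30 ± 0.40 (limma adjusted p 0.045).

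Rpl38, the gene with the highest mean FPKM and in mouse embryos needed for translating Hox messages, did not follow the rest. Its median over all libraries was 1552 FPKM, below the 1978 of Rpl41 and the 1870 of Rplp1. It had 3705, 1577, 740 and 1242 FPKM in combination tumours, 952, 4495, 2650 and 1288 in sonidegib, 1528, 2335, 2216 and 1486 in anti-PD-L1, and 4360, 1229, 761 and 2120 FPKM in vehicle tumours. High and low tumours occurred in each of the combination, sonidegib and vehicle groups. The difference between combination and vehicle was -0.17 ± 0.58 (limma adjusted p 0.862), positive after GC correction and without vehicle tumour 1 or combination tumour 3. Rpl32l, a processed pseudogene by annotation, was the other gene with a negative difference (-0.22 ± 0.24, limma adjusted p 0.534), at 0.165 to 2.13 FPKM.

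**Figure D4:**
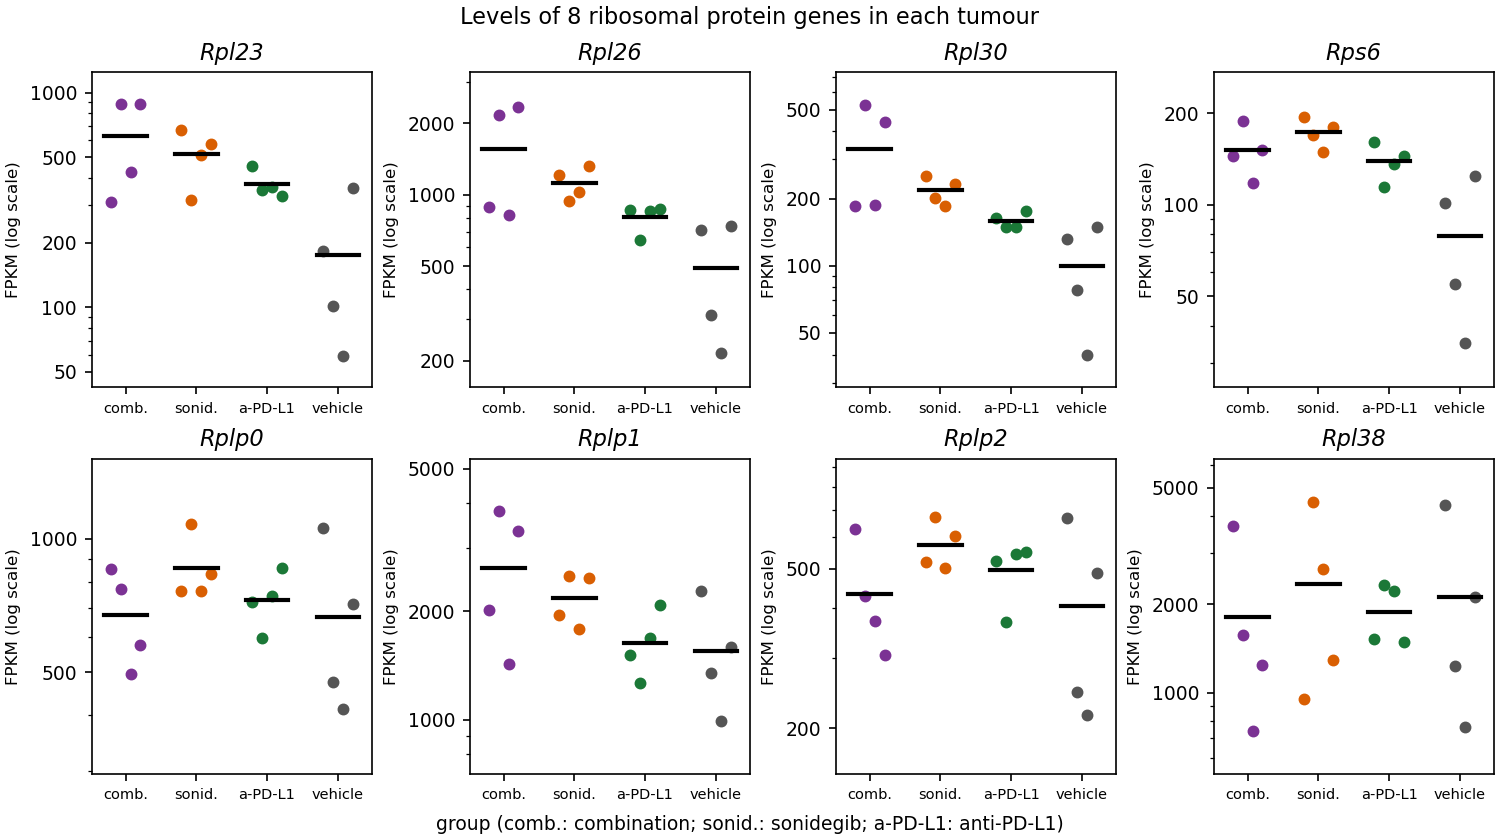
FPKM on a log scale of 8 ribosomal protein genes in each tumour, by group, with group means as black lines; the range of each vertical axis differs. In Rpl23, Rpl26, Rpl30, Rps6, Rplp0 and Rplp2 vehicle tumours 2 and 3 lie lowest. In Rplp0 and Rpl38 combination and vehicle tumours overlap over most of their range.

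The 3 genes commonly used as references in quantitative PCR did not move alike. Rps18 rose by 1.22 ± 0.38 in combination tumours (limma adjusted p 0.0459), whereas Rpl13a differed by 0.52 ± 0.39 (limma adjusted p 0.365) and Rplp0 by 0.09, as given above. Set against each other within a tumour, Rpl23 FPKM was 0.363, 1.15, 0.859 and 1.54 times that of Rplp0 in combination tumours. The ratio was 0.879, 0.290, 0.673 and 0.693 in sonidegib, 0.634, 0.590, 0.490 and 0.385 in anti-PD-L1 and 0.172, 0.213, 0.144 and 0.502 in vehicle tumours. The 3 lowest ratios were those of vehicle tumours 1, 2 and 3. Rpl23 had one of the largest differences between combination and vehicle tumours and Rplp0 one of the smallest. Low ratios in vehicle tumours thus follow from those differences and are no further result. The same 3 tumours had the highest slopes of level on GC content, given below, and the part of these slopes in the ratio was not tested.

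Base composition moved with the size of the difference. Of the 43 genes with the lower transcript GC content, at most 51.6%, 20 rose in combination tumours, with a median difference of 1.21. Of the 43 with the higher GC content, 8 rose, with a median of 0.81. Across the 86 genes, which are not independent replicates, Spearman's rho of GC content with the difference was -0.46, and across 14893 genes with a value it was -0.56. Transcript length had a rho of -0.07 among the 86 genes. In each library a slope of level on GC content was fitted over all genes. It was 0.21, -0.33, -0.29 and -0.40 log2 units per 10 percentage points of GC in combination tumours, against 0.47, 0.35, 0.37 and -0.05 in vehicle tumours. With each library's GC trend removed, 15 genes (17.4%) passed, against 3.18% of all genes, and the median was 1.10. With GC and length trends removed 0 passed by limma, against 0.218% of all genes, and the median was 0.95. Whether base composition or its handling in library preparation accounts for the calls was not tested.

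**Figure D5:**
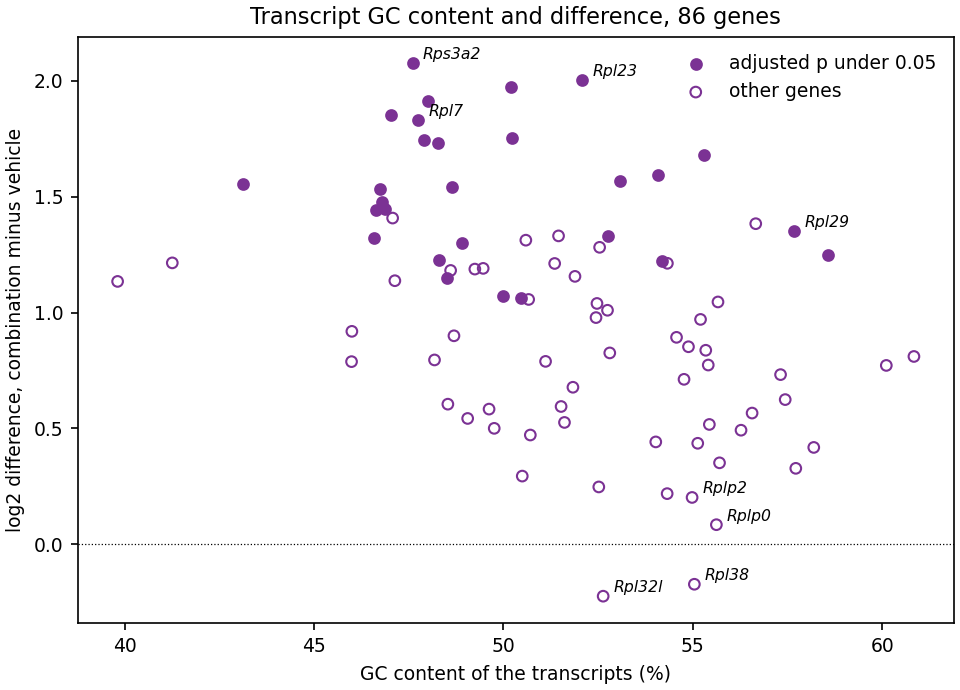
GC content of the transcripts in percent against the difference between combination and vehicle tumours in log2(FPKM + 1), for the 86 genes; filled points have an adjusted p under 0.05. Differences are larger toward low GC content (rho -0.46), with Rpl38, Rplp0 and Rplp2 near 55% GC among the lowest.

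The letters at the start sites were set beside the difference between combination and vehicle tumours. The 27 structural genes with a pyrimidine tract had a median difference of 0.89, from -0.17 in Rpl38 to 1.54 in Rpl35a, and 5 of them rose. The 28 matched structural genes without one had a median of 1.05, and 9 rose. For CCGGAAG the medians were 1.07 in 23 genes with it and 0.95 in 32 without it. In the windows printed above, the counted tracts were 13, 8, 8 and 16 bases long in Rpl35a, Rps15a, Rps24 and Rpl35. They were 8, 9, 8 and 12 bases long in Rpl38, Rplp2, Rps9 and Rpl7a. Counting began at the first such C within 5 bases of the start, so a run can begin further upstream, as in Rpl7a. These medians were not tested against each other.

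Several members have near-identical copies, among which the authors' counting could split reads, so their single values are uncertain. Rps3a1, a small-subunit gene, has the copies Rps3a2 and Rps3a3, both annotated as processed pseudogenes, and whether they shared reads was not tested. Rps3a2 took 67.2% to 72.6% of their summed FPKM, Rps3a1 13.5% to 18.8% and Rps3a3 12.5% to 16.9%, over the 16 libraries. The split was thus nearly the same in every tumour. All 3 rose in combination tumours, by 2.07 ± 0.49, 1.91 ± 0.45 and 1.85 ± 0.45 for Rps3a2, Rps3a1 and Rps3a3 (limma adjusted p 0.0342 each). Rpl37rt, at 4.73% to 6.69% of Rpl37, likewise rose (1.60 ± 0.42, limma adjusted p 0.0357). Rpl6l stood at 41.3% to 89.3% of Rpl6 and differed by 1.04 ± 0.37 (limma adjusted p 0.0657).

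Of the paralogs and other products, 3 of 6 rose in combination tumours. Rpl36al, a copy of Rpl36a on another chromosome, differed by 1.75 ± 0.44 (limma adjusted p 0.0357) and Rpl36a itself by 1.32 ± 0.41 (limma adjusted p 0.0455). Rps27l, a paralog of Rps27 that p53 induces in human cells, had 278, 509, 198 and 466 FPKM in combination tumours, against 229, 85.4, 52.5 and 167 FPKM in vehicle tumours (1.55 ± 0.43, limma adjusted p 0.0369). It amounted to 12.4% to 22.6% of Rps27, which differed by 1.31 ± 0.44 (limma adjusted p 0.0569). Rpl7l1 rose by 1.06 ± 0.33 (limma adjusted p 0.0456), with no overlap between the groups. Rpl22l1, a paralog that Rpl22 represses in mouse cells, differed by 1.13 ± 0.38 and Rpl22 by 1.19 ± 0.40, and neither passed (limma adjusted p 0.0564 and 0.0578). Rps19bp1, a regulator of the deacetylase Sirt1 and no part of the ribosome, differed by 0.57 ± 0.31 (limma adjusted p 0.203).

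With sonidegib alone, 0 of the 86 genes passed against vehicle by limma, as did 0% of all genes. At an unadjusted p under 0.05 there were 67 (77.9%), all higher, against 27.3% of all genes and 26% as higher. The median difference was 1.03 log2 units, close to the 1.05 of the combination, beside 0.33 over all genes. All 86 differences were above 0, as were 77.8% of all. The median was 0.77 after quantile normalization and 0.59 after median-of-ratios scaling, each beside 0.01 over all genes. All 4 sonidegib tumours exceeded all 4 vehicle tumours in 36 of the 86 genes (41.9%), against 6% of all genes, a count that also requires them to exceed vehicle tumours 1 and 4. Leaving out vehicle tumour 4 gave 57 calls (66.3%), against 26.3% of all genes, and without vehicle tumours 2 and 3 the median difference was 0.29, with 0 calls by limma and 3 genes at an unadjusted p under 0.05.

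The lowest p belonged to Rpl17, with 157, 124, 87.1 and 180 FPKM in sonidegib tumours, against 84.7, 28.1, 19.1 and 77.4 FPKM in vehicle tumours. The groups did not overlap, sonidegib tumour 3 standing just above vehicle tumour 1, and the difference was 1.58 ± 0.40 (limma adjusted p 0.127). Rps6 had 195, 169, 149 and 180 FPKM in sonidegib tumours, all above the vehicle tumours given earlier (1.29 ± 0.33, limma adjusted p 0.127). Rpl9, a large-subunit protein, had 185, 174, 189 and 197 FPKM in sonidegib tumours, against 108, 37.0, 32.6 and 151 FPKM in vehicle tumours (1.47 ± 0.39, limma adjusted p 0.127). Rpl23 (1.82 ± 0.47) overlapped in 1 pair, and Rpl27 (1.22 ± 0.36) did not overlap, both with a limma adjusted p of 0.127. In Rpl9 the standard deviation was 9.37 FPKM in sonidegib and 57.2 FPKM in vehicle tumours, whereas in Rpl17 it was 40.6 FPKM in sonidegib and 33.5 FPKM in vehicle tumours (n = 4 each).

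With anti-PD-L1 alone, 0 of the 86 genes passed against vehicle by limma, as did 0% of all genes, and 29 (33.7%) had an unadjusted p under 0.05, all higher, against 24.6% of all genes and 23.5% as higher. The median difference was 0.76, beside 0.30 over all genes, and all 86 differences were above 0, as were 76.1% of all. That median was 0.69 after quantile normalization and 0.35 after median-of-ratios scaling, beside -0.0012 and -0.0008 over all genes. The groups did not overlap in 2 genes (2.33%), Rps3a2 and Rpl7l1, against 3.39% of all genes. Rpl9 had the lowest p, with 197, 146, 194 and 167 FPKM in anti-PD-L1 tumours, of which 3 exceeded every vehicle tumour (1.38 ± 0.39, limma adjusted p 0.158). Rpl5 (1.24 ± 0.40), Rpl23 (1.40 ± 0.47), Rps6 (0.96 ± 0.33) and Rpl36al (1.25 ± 0.44) followed, each at a limma adjusted p of 0.158. Leaving out vehicle tumour 4 gave 27 calls (31.4%), near the 26% of all genes called in that setting, and without vehicle tumours 2 and 3 the median difference was 0.02 with 48 of the 86 above 0.

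In the median of the 86 genes, combination tumours differed less from either single-agent group than from vehicle. Sonidegib tumours were not tested against anti-PD-L1 tumours. Between combination and anti-PD-L1 tumours, 0 of the 86 genes passed by limma, as against 0.00662% of all genes, and 2 (2.33%) had an unadjusted p under 0.05, against 5.78% of all. The median difference was 0.30, beside -0.05 over all genes, and 70 of the 86 differences (81.4%) were above 0, against 43.7% of all. In Rpl30 all 4 combination tumours, at 185 to 525 FPKM, exceeded the anti-PD-L1 tumours, at 149 to 175 FPKM (0.91 ± 0.40, limma adjusted p 0.837), and 1 gene of the 86 (1.16%) did so, against 1.36% of all. Rpl32l (-0.64 ± 0.24, limma adjusted p 0.812) had the lowest p, followed by Rpl30. Rpl21 (0.72 ± 0.36), Rpl26 (0.79 ± 0.44) and Rps3a1 (0.80 ± 0.45) came after these, each at a limma adjusted p of 0.837.

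Between combination and sonidegib tumours 0 passed by limma, as did 0% of all genes, and 1 gene (1.16%), Rpl32l, had an unadjusted p under 0.05, against 4.28% of all. Rpl32l had 0.356, 1.01, 0.885 and 0.437 FPKM in combination and 2.04, 1.26, 1.98 and 1.40 FPKM in sonidegib tumours, at levels near the filter of 1 FPKM. It alone of the 86 had all 4 combination tumours below all 4 sonidegib tumours (2.44% of all genes did), with a difference of -0.68 ± 0.24 (limma adjusted p 0.959). The median was 0.01, with 43 of the 86 differences (50%) above 0, against 40% of all genes, and -0.07 over all genes. Rplp2 stood at 630, 428, 372 and 305 FPKM in combination and 521, 672, 503 and 602 FPKM in sonidegib tumours (-0.45 ± 0.37, limma adjusted p 0.959). Rpl7a (-0.47 ± 0.32), Rps2 (-0.69 ± 0.48) and Rpl36al (0.52 ± 0.44) were likewise at a limma adjusted p of 0.959.

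The interaction of the drugs asks whether the combination differs from vehicle by the sum of the 2 single differences. By limma 0 of the 86 genes passed, against 0.00662% of all, and 8 (9.3%) had an unadjusted p under 0.05, all negative, against 9.88% of all and 9.4% as negative. The median interaction was -0.73, beside -0.35 over all genes, and 1 of the 86 values was above 0, against 20.5% of all. It was -0.72 after quantile normalization and -0.22 after median-of-ratios scaling, beside -0.01 and 0.03 over all genes. The terms of the interaction are measured from vehicle. Relative to all genes the median interaction was -0.37 with all vehicle tumours and 0.13 without vehicle tumours 2 and 3. Rpl9 had an interaction of -1.61 ± 0.55 (limma adjusted p 0.485) and Rps6 one of -1.17 ± 0.47 (limma adjusted p 0.485). Those of Rpl14 (-1.37 ± 0.55) and Rpl32l (-1.11 ± 0.34) had the same limma adjusted p of 0.485. In the test across the 4 groups 0 of the 86 passed by limma, against 0.0199% of all genes, and 51 (59.3%) had an unadjusted p under 0.05, against 23.7%. Rpl23, Rps3a1, Rpl30 and Rps3a2 were among the 5 with the lowest p there (limma adjusted p 0.162 each). Leaving out vehicle tumour 4 gave 37 calls across the groups (43%), against 22% of all genes, and leaving out combination tumour 1 gave 15 (17.4%), against 12.1% of all genes.

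Other parts of the translation machinery were read from lists chosen with earlier results of these data known, and their counts stand beside the 10.3% of all genes called higher and the median of 0.26 over all genes between combination and vehicle tumours. Of 40 ribosome biogenesis genes, 6 (15%) rose in combination tumours and 0 fell, with a median of 0.55. Npm1, a nucleolar chaperone of ribosome assembly, averaged 249 ± 159 FPKM in combination and 58.8 ± 55.9 FPKM in vehicle tumours (SD, n = 4 each), a difference of 2.16 ± 0.58 (limma adjusted p 0.0362). Among the other 5 were Nop58, a core protein of box C/D snoRNPs, Nop10, of box H/ACA snoRNPs, and Rpf2, which helps bring in the 5S particle. Of 15 genes of RNA polymerase I and its factors, 2 (13.3%) rose, Taf1a and Taf1b, which are subunits of the SL1 promoter factor, and the median was 0.59. Both shares were near that of all genes. Of 4 ribosomal protein genes whose symbols fall outside the rule used here, 0 passed by limma, also at an unadjusted p under 0.05. Their median was 0.33.

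Of 17 elongation factors and other genes with TOP messages, 4 (23.5%) rose and 0 fell, with a median of 0.72. They were Naca (2.06 ± 0.46, limma adjusted p 0.0342) and Btf3, which form the nascent polypeptide-associated complex, Eif3e and Hnrnpa1. Of 24 initiation genes, 4 (16.7%) rose, namely Eif2s1, Eif2s2, Eif3m and the cap-binding Eif4e, with a median of 0.43. Of 11 snoRNA host genes, many of which carry a TOP start, Gas5, Snhg6 and Snhg8 (27.3%) rose, with a median of 0.86 over the list.

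The lists of regulators had shares at or below that of all genes. Of 14 genes of mTORC1 and the S6 kinases, 1 (7.14%) rose, the S6 kinase Rps6kb1 (1.12 ± 0.36, limma adjusted p 0.0498), and the median was -0.06. Of the 7 tested genes of Myc and its partners 0 passed by limma, with 1 at an unadjusted p under 0.05. Of 10 genes of ribosome stress and p53, 1 (10%) rose, the p53 target Ccng1, and the median was -0.07. With sonidegib or anti-PD-L1 alone 0 members of these 3 lists passed against vehicle by limma, and 5 and 4 genes of the mTORC1 list, 2 and 2 of the Myc list and 1 and 1 of the p53 list had an unadjusted p under 0.05.

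Mitochondrial genes moved in part in the same tumours. Of the 78 nuclear genes of the mitochondrial ribosome, 24 (30.8%) rose in combination tumours and 0 fell, with a median of 0.55. Their summed FPKM was lowest in vehicle tumours 2 and 3, at 1120.6 and 609. It was 2039 and 2387 in combination tumours 2 and 4, and 2080.5 and 2082 in sonidegib tumours 2 and 4. Of the 13 genes encoded in mitochondrial DNA, 8 (61.5%) rose, with a median of 1.60. Their summed FPKM was 12620, 41949, 14153 and 38524 in combination tumours, against 7904, 3846, 3552 and 18642 in vehicle tumours, so that combination tumours 2 and 4 were again highest and vehicle tumours 2 and 3 lowest. The part of mitochondrial RNA content in the other values was not tested.

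Epithelial markers were present in every tumour, with Epcam at 83.8 to 423 FPKM, and 0 of 6 passed by limma or at an unadjusted p under 0.05 between combination and vehicle. Markers of other cells did move. Of 5 fibroblast markers 3 rose (Dcn, Lum and Pdgfra), with summed levels of 98.8 to 193 FPKM in combination and 77.3 to 118 FPKM in vehicle tumours. Of 5 macrophage markers 1 rose (Mrc1), with sums of 133 to 189 FPKM in combination and 89.8 to 124 FPKM in vehicle tumours. Of 5 T cell markers 2 could be tested (Cd3g and Trbc2) and both rose, with sums of 1.48 to 19.1 FPKM in combination and 0.449 to 2.18 FPKM in vehicle tumours. Of 3 adipocyte markers 1 could be tested (Fabp4) and rose, with sums of 5.87 to 38.1 FPKM in combination and 0.573 to 3.11 FPKM in vehicle tumours, Adipoq being at 0 in vehicle tumours 2 and 3. Markers of endothelium (3 tested), skeletal muscle (3) and red cells (3) had 0 genes past the limma threshold and 1, 0 and 0 at an unadjusted p under 0.05. The part of these cells in the ribosomal protein levels was not tested.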

How the data were processed

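RNA of 16 tumours was sequenced as stranded, ribosomal RNA-depleted libraries per the labels' protocols, although another label field names polyA RNA. The authors deposited 1 table of FPKM values for 55146 rows. The submitters' processing notes name TopHat, Cufflinks, GRCm38.p6 and mm10, and the annotation is not given in the sources used here. Rn7sk, an abundant short RNA, was listed at 0 in 7 libraries and at 48555.5 to 156045 FPKM in the others. The 7 were combination tumours 2 and 4, sonidegib tumour 2, anti-PD-L1 tumour 4 and vehicle tumours 1, 2 and 3. These include every tumour whose single removal left 0 ribosomal protein genes called between combination and vehicle. Leaving out sonidegib tumour 2 or anti-PD-L1 tumour 4 gave 20 and 19 calls. Why Rn7sk was listed at 0 was not tested. Shares were therefore taken of nuclear coding genes (21675 rows, 84 of them members). All 91 genes matched GENCODE M21 by gene identifier without its version, which gave biotype, length and GC content. Their symbols equalled the names given there.

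Because the table holds FPKM and not counts, limma 3.58.1 (R 4.3.3; trend and robust estimation, two-sided) was run on log2(FPKM + 1) of the 15105 genes that reached 1 FPKM in 4 or more libraries, without further scaling, with 1 mean per group over all 16 libraries; a fold on this scale understates the change of low genes. P-values were adjusted by Benjamini-Hochberg over these genes, and the threshold was 0.05. Library totals are not given. Depth was estimated from the FPKM step of 1 fragment in single-transcript genes over 2 kb, and came to 34.1 to 57.4 M fragments. The script was tested on simulated data. Python 3.11.15, pandas 2.3.3, NumPy 2.4.6 and matplotlib 3.10.9 were used for the rest.

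The genes and lists were chosen with earlier results of these data known. Named genes are, per comparison, up to the 10 largest calls in each direction or, with fewer than 5 calls, the 5 lowest p. Added to these are the 3 members farthest from the median on each side, the 5 highest and 5 lowest levels, and fixed role genes and paralogs, with up to 4 calls per list (or 2 lowest p). Rpl10a and members named in a small count were chosen after their values were seen. Alternatives were quantile and median-of-ratios scaling, a pseudocount of 0.1, no filter, no trend or robust estimation, GC and length trends removed (loess), a replicate block, structural genes only, each library left out in turn and, added after seeing the data, vehicle tumours 2 and 3 left out. Some genes that this rule names are not reported here one by one.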

Additional observations from a re-analysis of the deposited data

Results flagged for a closer look

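Of 180 sets of 4 tumours examined for a sample apart from the other 3 (Dixon's test), 4 had one, and chance gives about 1 in 20 sets. Rpl36al stood at 185 FPKM in sonidegib tumour 4, above the other 3 sonidegib tumours at 168 FPKM each. Rpl26 stood at 642 FPKM in anti-PD-L1 tumour 2, below the other 3 at 854 to 872 FPKM. Rplp2 was low in the same tumour, at 369 FPKM against 522 to 552 FPKM in the others. Rps2 stood at 110 FPKM in sonidegib tumour 3, below the other 3 sonidegib tumours at 177 to 188 FPKM.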

How the results depend on the processing

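The count of genes that rose in combination tumours over vehicle was 28 and stood at 22 after median-of-ratios scaling, 36 after quantile normalization, 28 with 0.1 FPKM added in place of 1 and 34 without trend or robust estimation. It fell to 15 with GC trends removed, to 0 with GC and length trends removed, to 0 with no filter on low values (38045 genes tested) and to 0 with vehicle tumours 2 and 3 left out; the cause was not tested. Over all genes, calls fell likewise, to 481, 33, 8 and 1 in these 4 settings, against 1703. After median-of-ratios scaling 25.6% of the 86 genes passed, against 18.4% of all genes, and after quantile normalization 41.9%, against 17.4%. With 0.1 FPKM added 32.6% passed, against 11.8% of all genes, and without trend or robust estimation 39.5%, against 9.4%. Leaving out each library in turn gave 0 to 51 calls for combination against vehicle, 0 to 57 for sonidegib against vehicle, 0 to 27 for anti-PD-L1 against vehicle and 0 to 37 across the 4 groups. The highest counts came without vehicle tumour 4. The median difference relative to all genes, 0.79, 0.70 and 0.46 for combination, sonidegib and anti-PD-L1 against vehicle, ranged over 0.63 to 0.97, 0.50 to 0.94 and 0.27 to 0.68 with 1 library left out. Without vehicle tumours 2 and 3 it was 0.31, 0.18 and -0.053, and the interaction 0.13.

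Signs turned in 5 named genes for combination against vehicle. Rpl38, at -0.17, was 0.10 with GC trends removed, 0.036 with GC and length trends removed, 0.28 without vehicle tumour 1 and 0.17 without combination tumour 3, over a range of -0.60 to 0.28 with 1 library left out. Rplp0, at 0.09, was -0.12 after quantile normalization, -0.27 after median-of-ratios scaling, -0.04 without vehicle tumour 2, -0.11 without vehicle tumour 3, -0.04 without combination tumour 1 (range -0.11 to 0.34) and -0.40 without vehicle tumours 2 and 3. Rplp2, at 0.20, was -0.15 under both scalings, -0.047 without vehicle tumour 3 (range -0.047 to 0.50) and -0.45 without vehicle tumours 2 and 3. In that last setting Rpl10 was -0.20 and Rpl41 -0.051.

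The labels give every group replicate numbers 1 to 4. Same-numbered libraries did not deviate together: 4 of 24 pairs had a correlation over 0.1, the median was -0.045, and 3 of 16 libraries correlated best with their own number. With the replicate number as a block, 25 of the 86 genes (29.1%) passed, against 7.79% of all genes, and 24 of the 25 were among the 28.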
